A study of Gallus gallus with 6 samples.

Results

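The enzymes that build chondroitin sulfate, heparan sulfate and hyaluronan were compared between anterior and posterior half-sclerotomes of the chick embryo. They were matched by name, not by measured value, in the authors' deposited gene table. The set was chosen with earlier results of these data known. It held the rows for the xylosyltransferases, the chondroitin and heparan polymerases and their partners, the sulfotransferases, epimerases and sulfatases. It also held the hyaluronan synthases and the enzymes that supply nucleotide sugars and sulfate. The names matched 50 of 17108 gene rows. Of these, 36 (72.0%) were tested by the authors for a difference between the groups and 14 were not, against 61.5% tested over all rows. The 14 rows not tested lay under 1.5 FPKM (fragments scaled to transcript length and to the library's total) in both groups. The name alone does not place a gene in these pathways: 8 of the 50, namely B3GAT1, B3GAT2, CHST1, CHST2, CHST4, CHST8, CHST9 and CHST10, are known mainly for other glycans and are given separately.

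Both groups came from wild type chick embryos at embryonic day 3, Hamburger and Hamilton stage 18, with no treatment named in the labels, and differed only in which end of the sclerotome was dissected. The sclerotome is the ventral part of the somite and forms the vertebral column. Each group had 3 poly(A)-selected libraries, and each library was made from a pool of 100 half-sclerotomes taken at somites 11 to 23 counted from the youngest. Sex was not given, and the labels do not say whether pools came from separate embryos. Any spread that the p-values reflect is thus between pools and may be partly technical. How the authors' test estimated the spread for each gene is not stated. The authors' table gives 1 FPKM value per group and none per library, so no value below carries a replicate error, overlap of the libraries cannot be judged, and the authors' q-value is the only measure of error. Its lowest p is 5e-05, shared by 380 genes, which sets the lowest q at 0.00139. Depth is unknown, as no counts are given.

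Glycosaminoglycans are long sugar chains. Chondroitin sulfate and heparan sulfate are built in the Golgi on core proteins, from a shared linker, and are then sulfated in patterns that decide which growth factors and guidance molecules they bind. Hyaluronan is made at the cell surface without a core protein and is not sulfated. In the somite, chondroitin sulfate proteoglycans are known as components of the posterior half-sclerotome, the part that motor axons and neural crest cells avoid.

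Of the enzymes, 7 passed the authors' test, and all but NDST4 were higher in anterior half-sclerotomes. At q under 0.05 in the authors' deposited table, 6 of the 36 tested enzymes were higher in anterior and 1 was higher in posterior, where 3.50% and 3.57% of all 10529 tested genes were called in those directions and 7.07% in both together. The share called among the enzymes was 19.4%, a description with no test, since the enzymes were chosen with earlier results known. The enzymes as a whole did not lean to one side: 18 had the higher FPKM in each group, and their median log2 ratio of posterior over anterior FPKM was -0.01, beside 0.00 over all tested genes. The called genes sat at separate steps: the supply of the sulfate donor (PAPSS1), hyaluronan synthesis (HAS2), the start of the chondroitin chain (CSGALNACT1), the first modification of heparan (NDST3 and NDST4) and the removal of sulfate from finished heparan sulfate (Sulf1 and SULF2). In these pools of whole tissue, fewer cells of a type and less RNA per cell cannot be told apart.

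**Figure D1:**
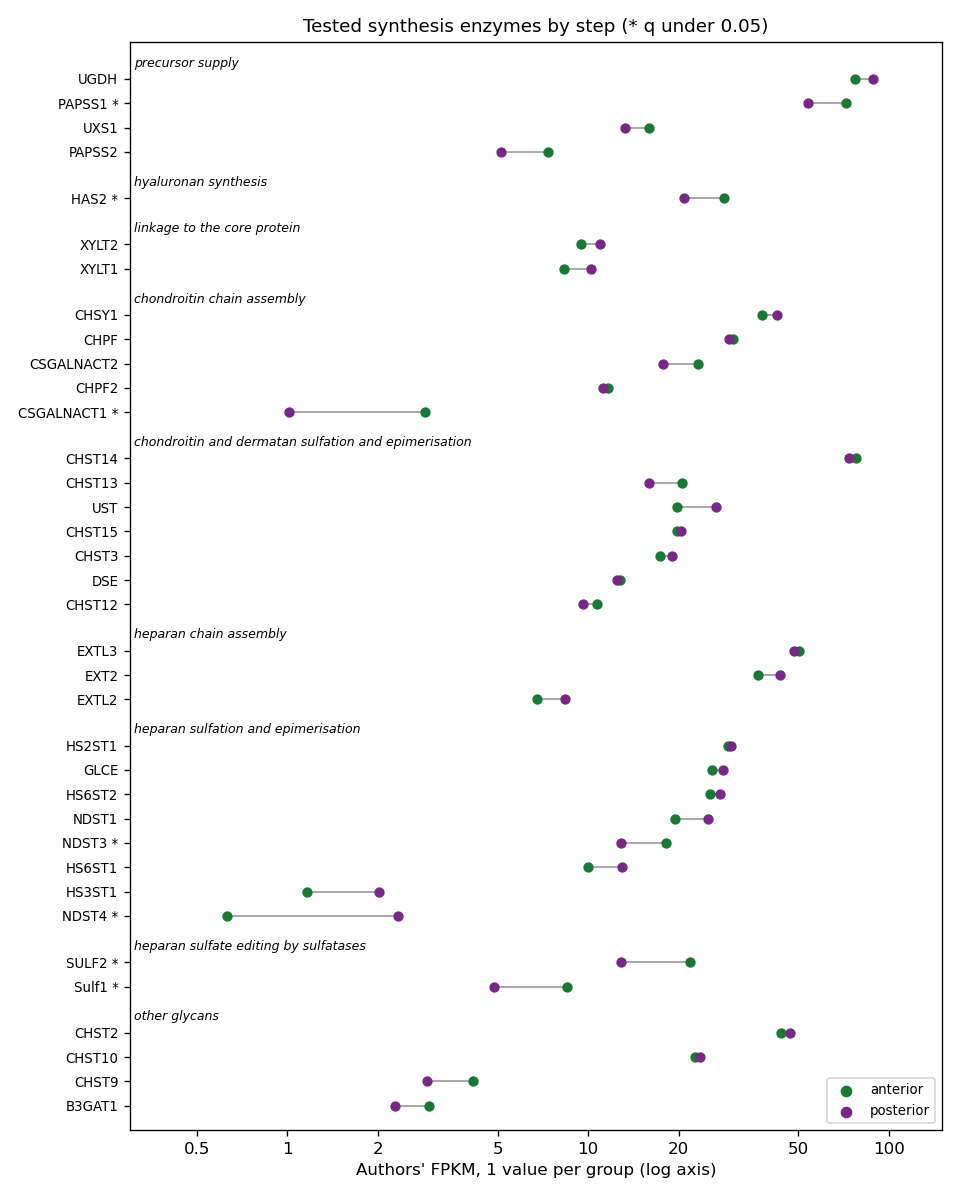
FPKM of the 36 tested enzymes in anterior (green) and posterior (purple) half-sclerotomes on a log axis, 1 authors' value per group with no error bar, ordered by enzyme step. Stars mark the 7 genes at q under 0.05; the longest lines belong to NDST4, with posterior to the right, and CSGALNACT1, with anterior to the right.

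Markers of cells other than sclerotome were measured in both groups, and only part of each list was called. UNCX, a posterior sclerotome gene, and TBX18, an anterior one, were each called in the direction of the label. Of 9 tested neural crest and Schwann precursor genes 6 were called higher in anterior. The summed FPKM of that list was 312 in anterior and 96.0 in posterior. Most of the posterior sum came from ETS1 alone (62.6, beside 50.9 of the anterior sum). ETS1 was not called (q = 0.239 by the authors' deposited table). By value, 7 of the 9 genes were lower in posterior, while ETS1 and SOX8 were higher. In the dermomyotome and myotome list 4 of 7 tested genes were called higher in anterior (summed FPKM 80.7 and 34.5 over all 8 rows). So was 1 of 2 tested neuron genes (84.2 and 49.2 over all 6 rows, tested or not). Of 10 endothelial genes 7 were called higher in posterior (101 and 153), and of 6 sclerotome genes 3 were (714 and 929). By value, 9 of the endothelial genes were higher in posterior, KDR only slightly (7.37 and 7.46), and PECAM1 was lower (14.3 and 14.0). Of the sclerotome genes 5 were higher in posterior and FOXC2 was lower (185 and 179). PAX1 alone gave 367 and 490 of the sclerotome sums. No marker matched in these lists was listed at 0 in either group. The part of these cells in the differences between enzymes was not tested.

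The endosulfatases act outside the cell and remove 6-O-sulfate groups from heparan sulfate, which changes its binding of signals such as Wnt and FGF. Both were lower in posterior half-sclerotomes. Sulf1 was at 8.51 FPKM in anterior against 4.87 FPKM in posterior, and SULF2 at 21.7 and 12.8 FPKM. Posterior levels were thus 57.3% of anterior for Sulf1 and 59.1% for SULF2, and each was at the lowest q of the authors' deposited table (q = 0.00139). The pair changed by nearly the same proportion, so that SULF2 made up 71.8% of their summed FPKM in anterior against 72.5% in posterior. On galGal4, Sulf1 lies on chromosome 2 from 115993905 to 116060835 and SULF2 on chromosome 20 from 6263029 to 6319814. They were the only enzymes of the 36, besides NDST4, at q under 0.01 in the authors' deposited table, where 4.71% of all tested genes were called.

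The N-deacetylase/N-sulfotransferases make the first modification of the heparan chain, which later enzymes depend on. Of this family, 3 members had a row and all were tested, and the 2 that were called differed in opposite directions. NDST3 was at 18.1 FPKM in anterior against 12.9 FPKM in posterior (1.41-fold, q = 0.0375 by the authors' deposited table). NDST4 was at 0.630 FPKM in anterior against 2.33 FPKM in posterior (3.69-fold, q = 0.00139 by the authors' deposited table). NDST4 thus had the largest ratio of the tested enzymes and also their lowest mean level. Of all tested genes, 15 had a mean under 1 FPKM, and a gene at the anterior level of NDST4 in both groups would have stood among those or gone untested. The family member NDST1 was at 19.4 and 25.0 FPKM, which is 1.29-fold, and was not called (q = 0.819 by the authors' deposited table).

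Summed over the 3 family members with a row, NDST transcripts were at 38.1 FPKM in anterior against 40.2 FPKM in posterior, a 1.06-fold difference. NDST2 had no row and is not part of this sum. Of this sum, NDST3 held 47.5% of it in anterior and 32.0% in posterior, NDST4 1.65% and 5.79%, and NDST1 50.8% and 62.2%. The sum and these shares rest on NDST1, whose value is uncertain: without it, NDST3 and NDST4 together were at 18.7 FPKM in anterior against 15.2 FPKM in posterior, so the sum was then higher in anterior (1.23-fold). NDST1 shares 1 merged locus with 12 other rows, and its log2 ratio was 0.81 per unit of the authors' test statistic, above the range of 0.21 to 0.79 for the other tested enzymes (median 0.28). For comparison, UST, at a similar level and with a 1.34-fold difference, had q = 0.180 by the authors' deposited table. NDST3 and NDST4 are neighbours on chromosome 4 of galGal4, at 54481058 to 54543688 and 55718383 to 55803843, with no other row between them in the table.

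**Figure D2:**
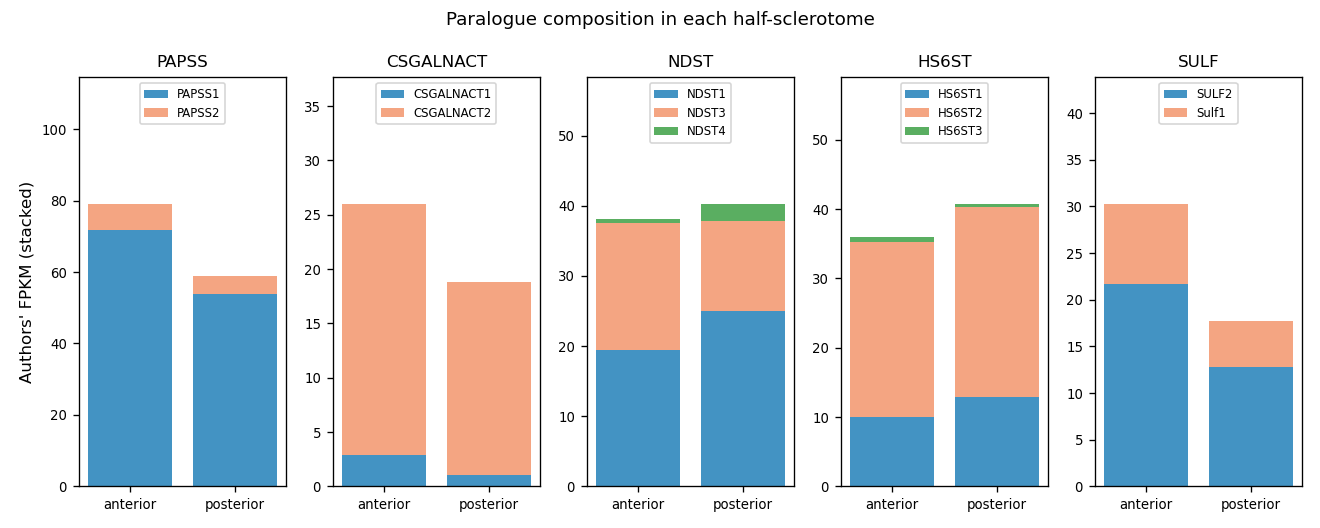
Stacked FPKM of related enzymes in each group, 1 authors' value per group with no error bar; each panel has its own axis from 0. The SULF, PAPSS and CSGALNACT bars are lower in posterior, while the NDST bars stand at 38.1 and 40.2 FPKM, of which NDST1, with an uncertain value, is the largest part.

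Among the remaining enzymes of heparan modification, none was called. GLCE, the epimerase that turns glucuronic into iduronic acid, had 25.7 FPKM in anterior against 28.0 FPKM in posterior, and HS2ST1, which sulfates iduronic acid, was at 29.2 and 29.7 FPKM. The 6-O-sulfotransferases, which add the group that the endosulfatases remove, were at 9.98 and 13.0 FPKM (HS6ST1, q = 0.469) and at 25.3 and 27.4 FPKM (HS6ST2, q = 0.879 by the authors' deposited table). HS6ST3 was at 0.710 and 0.381 FPKM and was not tested. The 2 enzyme groups with opposing action on the same position thus gave summed values of 36.0 and 40.7 FPKM for HS6ST and 30.2 and 17.7 FPKM for the sulfatases. Only the sulfatases were called, and the difference between these ratios was not tested.

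The 3-O-sulfotransferases add a rare, late modification. Those with a row were at low levels. HS3ST1 was at 1.16 and 2.02 FPKM (1.74-fold, q = 0.423 by the authors' deposited table). HS3ST2, HS3ST4, HS3ST5 and HS3ST6 were under 1 FPKM in both groups and not tested. HS3ST3A1 and HS3ST3B1 had no row, so their levels are unknown. HS3ST1 had the largest ratio of the 29 tested enzymes that were not called. Of the 8 tested enzymes of heparan sulfation and epimerisation, NDST3 was the only one with a lower FPKM in posterior. Their median log2 ratio was 0.25, but 1 of the 7 higher in posterior passed the test.

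Assembly of the heparan chain showed no call among 3 tested genes (0 at unadjusted p under 0.05 in the authors' deposited table). Over all tested genes these shares were 7.07% and 16.1%. With 3 genes, a count of 0 does not set this step apart from that background. EXTL3, which starts the heparan chain, was at 50.0 and 48.4 FPKM, EXT2, a subunit of the polymerase, at 36.6 and 43.3 FPKM, and EXTL2, a related transferase, at 6.78 and 8.37 FPKM. EXT1, the partner of EXT2 in the polymerase, is listed at 0 in both groups. A listed 0 can be a failed estimate, so no statement on EXT1 is made from it.

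On the chondroitin side the called gene was CSGALNACT1, which encodes an enzyme that adds the first N-acetylgalactosamine and so commits the linker to chondroitin. It was at 2.87 FPKM in anterior against 1.01 FPKM in posterior (2.84-fold, q = 0.0197 by the authors' deposited table). Its mean level was low, above that of only 4.84% of tested genes. CHST8 (1.12 and 0.956 FPKM) and DSEL (1.02 and 1.38 FPKM) were not tested. A gene at the posterior level of CSGALNACT1 in both groups may thus have gone untested. CSGALNACT2, which has the same activity, was at 23.1 and 17.8 FPKM, and its 1.30-fold difference did not pass (q = 0.125 by the authors' deposited table). CSGALNACT2 made up 88.9% of their summed FPKM in anterior against 94.6% in posterior, so the called member was the minor one. The sum was 26.0 FPKM in anterior against 18.8 FPKM in posterior. CSGALNACT1 lies on chromosome 4 of galGal4 from 33528138 to 33541938.

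The chondroitin polymerase genes were at similar levels in both groups. For anterior and posterior, CHSY1 was at 37.8 and 42.5 FPKM, CHPF at 30.4 and 29.3 FPKM, and CHPF2 at 11.6 and 11.2 FPKM, with q from 0.657 to 0.946 in the authors' deposited table. CHSY3, on chromosome Z, was under 1 FPKM and not tested. No gene of chondroitin or dermatan sulfation and epimerisation was called among 7 tested, beside 7.07% of all tested genes. However, 2 were at unadjusted p under 0.05 in the authors' deposited table, where 16.1% of all tested genes were.

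Those 2 lay in opposite directions. CHST13, a 4-O-sulfotransferase, was at 20.6 and 15.9 FPKM (q = 0.145), and UST, which sulfates uronic acid, was at 19.8 and 26.6 FPKM (q = 0.180 by the authors' deposited table). CHST12, also a 4-O-sulfotransferase, was at 10.7 and 9.62 FPKM, and CHST3, the main 6-O-sulfotransferase of chondroitin, at 17.3 and 19.1 FPKM. CHST15, which adds a further sulfate to 4-sulfated chondroitin, was at 19.7 and 20.4 FPKM. The dermatan enzymes CHST14, a 4-O-sulfotransferase, and DSE, an epimerase, were at 77.5 and 73.6 FPKM and at 12.8 and 12.4 FPKM. By FPKM, which is scaled to length, CHST14 ranked second among all 50 rows, after UGDH. CHST11 was listed at 0 in anterior and 0.0188 FPKM in posterior, at a locus shared with an unnamed row. Such values can be a failed estimate, so no statement on CHST11 is made from them. DSEL, a second epimerase gene, was at 1.02 and 1.38 FPKM. Neither CHST11 nor DSEL was tested.

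Of the 4 tested enzymes that supply precursors, 1 was called, beside 7.07% of all tested genes. With 4 genes, a count of 1 does not set this step apart from that background. PAPSS1, which makes the sulfate donor PAPS, was at 71.7 FPKM in anterior against 53.8 FPKM in posterior (1.33-fold, q = 0.0231 by the authors' deposited table). PAPSS2, with the same activity, had a similar ratio at a lower level, with 7.33 and 5.12 FPKM (1.43-fold), but was not called (q = 0.408 by the authors' deposited table). PAPSS2 shares its locus with another row. Their sum was 79.0 FPKM in anterior against 58.9 FPKM in posterior, with PAPSS1 at 90.7% and 91.3% of it. PAPSS1 lies on chromosome 4 of galGal4 from 37490651 to 37526579.

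Of the enzymes matched by name, UGDH and UXS1 on the sugar side of the supply were not called. UGDH, which makes UDP-glucuronic acid, was at 77.0 and 88.2 FPKM (q = 0.472), and UXS1, which turns it into UDP-xylose, at 15.9 and 13.2 FPKM (q = 0.418 by the authors' deposited table). The xylosyltransferases, which start the linker on the core protein, were at 8.33 and 10.2 FPKM (XYLT1, which shares its locus with another row) and at 9.47 and 10.9 FPKM (XYLT2). Neither XYLT gene was called, and neither was at unadjusted p under 0.05 in the authors' deposited table.

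HAS2, the hyaluronan synthase known for its role in the early embryo, was at 28.2 FPKM in anterior against 20.9 FPKM in posterior. Its difference was 1.35-fold and the closest to the threshold of the 7 called (q = 0.0411 by the authors' deposited table). HAS3 had 0.0578 FPKM in anterior, with a listed 0 in posterior, so HAS2 accounted for nearly all hyaluronan synthase signal among the rows measured. HAS1 had no row. HAS2 lies on chromosome 2 of galGal4 from 136937865 to 136952782.

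**Figure D3:**
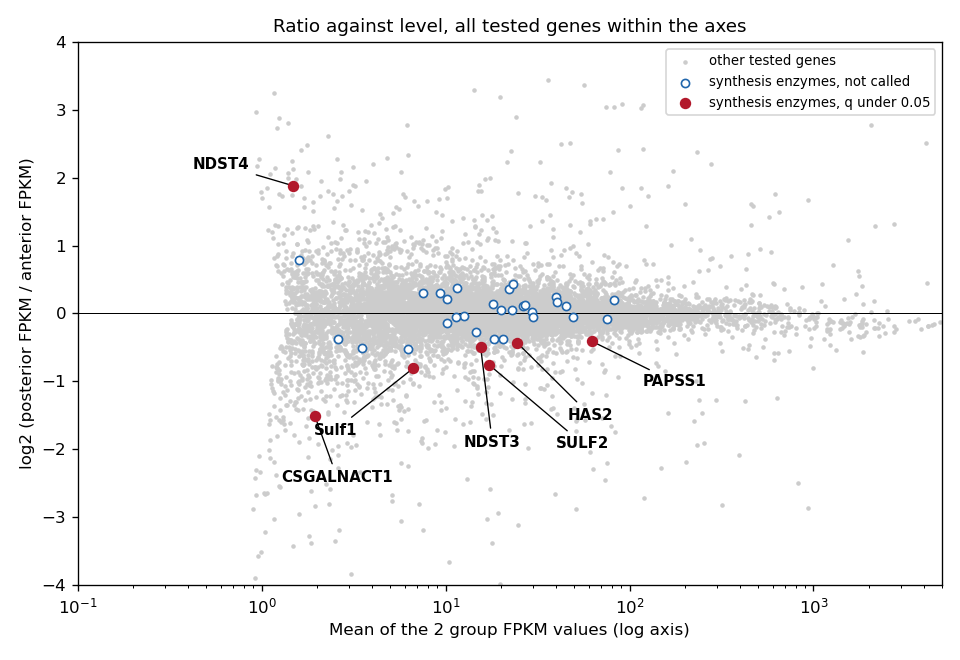
Log2 ratio of posterior over anterior FPKM (vertical) against the mean of both FPKM values (log axis) for tested genes that fall within the axes, with 1 point per gene. The 7 called enzymes are filled and named, and the 29 others are open circles; PAPSS1, HAS2 and NDST3 lie close to uncalled enzymes in ratio, while NDST4 and CSGALNACT1 lie at low level and large ratio.

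The 29 tested enzymes that were not called had a median difference of 1.15-fold, and 17 of them differed by less than 1.2-fold. Among all tested genes with a mean of 20 to 50 FPKM, the smallest difference called by the authors was 1.29-fold and the median called difference 1.52-fold. At 10 to 20 FPKM these were 1.31-fold and 1.65-fold, and at 1 to 5 FPKM 1.42-fold and 2.31-fold. Differences above the smallest could also go uncalled, such as 1.34-fold for UST and 1.74-fold for HS3ST1. Enzymes that were not called are thus not shown to be equal in both groups.

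Of the 8 rows for other glycans, 4 were tested and none was called (0 at unadjusted p under 0.05 in the authors' deposited table). Over all tested genes these shares were 7.07% and 16.1%. With 4 genes, a count of 0 does not set these rows apart from that background. B3GAT1 and CHST10 make the HNK-1 sugar epitope, which marks migrating neural crest cells. B3GAT1 was at 2.95 and 2.27 FPKM (q = 0.720) and CHST10 at 22.7 and 23.5 FPKM (q = 0.948 by the authors' deposited table), beside the crest marker list with its median log2 ratio of -3.03. In that list 7 of 9 genes were lower in posterior and 2 were higher. Any link between crest cells and the values of B3GAT1 or CHST10 was not tested. CHST2, which sulfates N-acetylglucosamine, was at 43.6 and 47.0 FPKM, and CHST9, which sulfates N-acetylgalactosamine on other glycoproteins, at 4.15 and 2.91 FPKM. The other four, B3GAT2, CHST1, CHST4 and CHST8, were at or under 1.12 FPKM.

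Genes that work before or after these enzymes were taken from lists and are read against 7.07% called and 16.1% at unadjusted p under 0.05 over all tested genes. At list sizes of 3 to 15, counts of 0 or 1 do not set these lists apart from that background. Of 14 tested genes of sugar and sulfate supply, 1 was called: GFPT2, which acts in the synthesis of hexosamines, at 48.4 FPKM in anterior against 36.1 FPKM in posterior (q = 0.0290 by the authors' deposited table). The median log2 ratio of that list was -0.01. Among 10 chondroitin sulfate core proteins, 9 heparan sulfate core proteins, 15 genes of glycosaminoglycan breakdown and 3 linker enzymes with other names, 0 were called, and 3, 1, 3 and 0 were at unadjusted p under 0.05 in the authors' deposited table. The median log2 ratios of these lists were -0.10, 0.13, 0.04 and 0.12. Of the genes at unadjusted p under 0.05, 2 chondroitin sulfate core proteins were higher in anterior and 1 in posterior. The 1 heparan sulfate core protein was higher in anterior, and all 3 breakdown genes were higher in posterior.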

How the data were processed

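The comparison used 3 anterior and 3 posterior libraries through 1 table of the whole series. Per the submitters' processing notes, FastQC, TopHat2 2.1.0, Cufflinks 2.2.1, Cuffdiff and galGal4 were used, with no roles given. Per the file headers, the deposited table holds the authors' FPKM per group, the authors' p-value and q-value, and a test statistic, which is a score made by the authors. The annotation release, the options for counting and any scaling of libraries are not stated in these sources. FPKM values follow the library total and the transcript length, and reads that fit several related genes may be divided among them. Depth is unknown.

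Here, ratios, counts and sums were computed with Python 3.11.15 and pandas 2.3.3. A gene was called at the authors' q under 0.05. Benjamini-Hochberg adjustment of the authors' p over tested rows gave q to within 5.27e-07. Locus starts were raised by 1, as the table counts from 0. Enzymes at q under 0.05 were given in full and other tested ones with both values. Enzymes and lists were chosen with earlier results of these data known. The counting step was tested on simulated data. Of 59 enzymes in the step lists, 9 had no row and were not analysed here. They were HAS1, B3GAT3, CHST5, CHST6, CHST7, EXTL1, NDST2, HS3ST3A1 and HS3ST3B1.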

Additional observations from a re-analysis of the deposited data

How the results depend on the processing

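The counts of 6 enzymes higher in anterior and 1 in posterior were the same at q under 0.1, with a mean FPKM of at least 1, without rows that share a locus, after centring on the median of all tested genes, without the enzymes of other glycans and with 1 row per symbol. Centring kept the authors' q and shifted log2 ratios by only 0.0046, so it could not change the counts. Dropping the enzymes of other glycans also could not, since none of them was called and q was kept. The filter at a mean FPKM of 1 removed no tested enzyme, as their lowest mean was 1.48 FPKM. For the filters on mean FPKM, on shared loci and on rows per symbol, Benjamini-Hochberg adjustment was repeated over the rows kept. The other settings kept the authors' p or q. No called enzyme shares its locus with another row or has a second row under its symbol. The filters on shared loci and on rows per symbol could thus change the counts only through the repeated adjustment. The anterior count was 2 at q under 0.01, where 4.71% of all tested genes were called in both directions together. It was 3 at q under 0.05 when a difference of at least 1.5-fold was also required. The share of all tested genes that met both of those limits was not computed. The posterior count was 1 in each of these settings. At unadjusted p under 0.05, which 16.1% of all tested genes passed, the anterior count was 8 and the posterior count 2. With a mean FPKM of at least 5 the posterior count was 0 and the anterior count 5. That filter removes NDST4 and CSGALNACT1 by their level. The share called over all genes was not computed at q under 0.1 or over the rows that each filter kept. The counts in those settings thus cannot be set against a background. The median log2 ratio of all tested enzymes was -0.01. It was 0.023 with a mean FPKM of at least 5 and -0.044 without rows that share a locus. These values are the log2 ratios of HS2ST1 and DSE, the enzymes directly on either side of the full median. No replicate could be left out, since the table has no value per library. No paired analysis was possible because the table holds 1 column per group and none per replicate number.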

Other observations

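Chromosome 4 held 7 of the 36 tested enzymes and 4 of the 7 called ones, CSGALNACT1, PAPSS1, NDST3 and NDST4. Over that chromosome the authors called 62 of 748 tested genes (8.29%). This grouping was noticed after the values were seen and has no test. UGDH, HS3ST1 and HS6ST2, on the same chromosome, were not called.

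The row beyond NDST4, named CGT in the table, had values close to those of NDST4, at 0.558 FPKM in anterior against 2.22 FPKM in posterior (q = 0.00371 by the authors' deposited table). On the other side, NDST3 and NDST4 are separated by 1.17 Mb without a row on galGal4. The next row after CGT, ARSJ, was at 5.57 and 6.78 FPKM (q = 0.658 by the authors' deposited table). These neighbours were picked by position after the NDST values were seen.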
